A study of Mus musculus with 2 samples.

Results

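The genes described here encode enzymes and adaptors that attach ubiquitin to proteins or take it off again. They were chosen by name, as the peaks assigned to genes of the Uba, Ube2, Ube3, Ube4, Herc, Hectd, Nedd4, Trim, Cul, Fbxl, Fbxo, Fbxw, Klhl, Usp and Otud families, without the gene names that mark a pseudogene with "-ps". In all, 92 of 4789 deposited peaks met this rule, 63 of 3078 in the control library and 29 of 1711 in the library of chronic ocular hypertension (COH). They were assigned to 62 of 2893 genes in control and 29 of 1593 in COH, 70 different genes of 3457 in both lists together. The libraries came from a CUT&Tag experiment, in which an antibody bound in nuclei directs a transposase to cut and tag the DNA around it. The antibody was against Rac1, a small GTPase known for steering actin remodelling. The control library was from retina of untreated mice, and the other from retina of mice with COH at 1 week, a model of glaucoma with raised pressure in the eye. All mice were wild-type C57BL/6 animals 7 weeks old, and how many retinas went into a library is not given in the sources used here.

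There was 1 library per condition, so no difference between the conditions has a replicate check or a test. The ranges after shares are exact 95% binomial limits, which hold counting error and nothing else. The number of reads is unknown, and no library with a control antibody was analysed here. Among 40 marker genes of retinal cell types the control list named 6 and the COH list 2, and of the 5 rod markers neither list named any, so the peaks do not check the tissue. Each peak carries the authors' pileup, the height of stacked fragments at its summit, and a fold, the pileup relative to a background set by their peak caller. Folds and pileups of both libraries are given side by side, with a scaling between libraries that is not stated. Only sites past the threshold of the caller are listed, and absence from a list does not mean that the antibody gave no signal there.

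Ubiquitin is activated by an E1 enzyme, handed to an E2 conjugating enzyme and placed on a substrate with the help of an E3 ligase. HECT ligases carry the ubiquitin themselves before they pass it on, whereas RING-type ligases such as TRIM proteins and the cullin complexes bring the loaded E2 to the substrate. Cullins are scaffolds: F-box proteins select substrates for Cul1 complexes and BTB-Kelch (KLHL) proteins for Cul3 complexes. Deubiquitinases of the USP and OTUD families cut the chains. In neurons the system is known for the turnover of synaptic proteins and for the breakdown of injured axons.

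Ubiquitin genes were named in both retinas at a higher rate than protein-coding genes at large. Of 316 protein-coding genes that match the names, 61 (19.3%, 15.1 to 24.1) had a control peak, beside 10.8% of all 21900 protein-coding genes. In COH 28 (8.86%, 5.97 to 12.6) had a peak, beside 5.38%. The remaining gene in each list, Ube2nl, is a pseudogene in the RefSeq table. No test was made of these shares. The 316 include near-identical tandem copies, which were picked out after the values were seen. Of the 16 genes from Fbxw13 to Fbxw28, 1 had a peak, and of 5 Usp17-like genes and 9 genes of the Trim5, Trim12, Trim30 and Trim34 group, 0 had one. Both lists named 21 ubiquitin genes, 41 stood in control only and 8 in COH only. For comparison, 3.53% of all protein-coding genes were in both lists. Thus 33.9% (22.3 to 47.0) of the ubiquitin genes of the control list were also in the COH list, close to the 35.6% of all control genes. Of the COH genes 72.4% (52.8 to 87.3) were also in the control list, beside 64.6% of all COH genes.

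The peaks lay at gene starts more often than those of the lists as a whole. In control 52 of 63 peaks (82.5%, 70.9 to 90.9) lay within 1000 bp of the transcription start site (TSS) of their gene, beside 61.6% of all control peaks. In COH 25 of 29 (86.2%, 68.3 to 96.1) did so, beside 51.1%. The lists as a whole also hold genes that are not protein-coding. Of the 2363 protein-coding genes with a control peak 1833 had one within 1000 bp of the TSS, and of the 1179 in COH 832. Beside protein-coding genes the excess was thus smaller, and it was not tested. The authors annotated 40 control peaks to promoters, 16 to 5' UTRs, 4 to introns, 2 to distal intergenic sequence and 1 to an exon. In COH 21 peaks were annotated to promoters, 6 to 5' UTRs, 1 to an intron and 1 to distal sequence. Counting the peaks within 1000 bp alone, 52 ubiquitin genes were named in control and 25 in COH, where the shares of all protein-coding genes were 8.37% and 3.80%. Their strength was ordinary: the median fold of the peaks near a start was 5.44 in control and 6.03 in COH, beside 5.18 and 5.33 for all start-near peaks. The strongest ubiquitin peak ranked 210 by fold in control and 213 in COH, and its fold of 8.87 compares with a highest fold of 32.5 in the whole control list.

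The promoters of 4 genes with peaks at the start in both retinas are given. They are the genes whose summits lay within 500 bp of the TSS in both lists and whose start in the lists could be matched to RefSeq, taken by fold and by class. Each runs 5' to 3' on the strand of the gene, from 250 bases before to 50 bases after the RefSeq start, in GRCm38.p6, whose coordinates are not those of the lists. The capitals mark matches to motifs, on either strand and whether or not a peak covers them. These are TGACGTCA with its shorter form TGACGT, which lies within it, then GGGCGG and then CCGGAAG and also CACGTG, besides the longer motif known for YY1.
Ube2b (chr11:52000737-52001036, minus strand): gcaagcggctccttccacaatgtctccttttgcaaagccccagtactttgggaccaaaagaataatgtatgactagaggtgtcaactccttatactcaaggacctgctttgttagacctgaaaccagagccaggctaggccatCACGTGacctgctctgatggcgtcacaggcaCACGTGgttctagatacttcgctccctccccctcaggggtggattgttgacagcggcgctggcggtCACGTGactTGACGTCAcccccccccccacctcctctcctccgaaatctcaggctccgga
Trim41 (chr11:48817342-48817641, minus strand): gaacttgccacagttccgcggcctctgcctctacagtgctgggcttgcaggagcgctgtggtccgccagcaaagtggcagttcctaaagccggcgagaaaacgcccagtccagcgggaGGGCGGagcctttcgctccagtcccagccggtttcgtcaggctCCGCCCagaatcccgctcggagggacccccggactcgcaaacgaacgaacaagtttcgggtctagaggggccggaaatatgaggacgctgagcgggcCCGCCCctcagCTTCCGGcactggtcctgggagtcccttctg
Usp38 (chr8:81014857-81015156, minus strand): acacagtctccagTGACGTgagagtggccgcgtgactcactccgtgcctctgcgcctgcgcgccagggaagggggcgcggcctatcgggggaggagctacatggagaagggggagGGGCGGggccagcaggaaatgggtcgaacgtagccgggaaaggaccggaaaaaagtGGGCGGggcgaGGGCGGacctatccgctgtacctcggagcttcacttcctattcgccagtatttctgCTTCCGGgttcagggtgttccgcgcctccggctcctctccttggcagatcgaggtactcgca
Ube2g1 (chr11:72607011-72607310, plus strand): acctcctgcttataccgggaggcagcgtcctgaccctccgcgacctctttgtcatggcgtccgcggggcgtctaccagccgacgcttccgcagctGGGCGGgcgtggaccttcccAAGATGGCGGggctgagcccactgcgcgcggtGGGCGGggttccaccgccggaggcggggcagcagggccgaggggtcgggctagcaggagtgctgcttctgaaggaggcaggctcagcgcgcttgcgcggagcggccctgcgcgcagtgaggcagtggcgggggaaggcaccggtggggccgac
The Ube2b promoter holds CACGTG, the E-box, at 3 places and TGACGTCA, the cAMP response element, across its start. It has 12 CG dinucleotides, while Trim41 has 25, Usp38 has 27 and Ube2g1 has 33. Trim41 and Usp38 each hold 3 copies of GGGCGG, the GC box, and 1 of CCGGAAG, the core of sites for ETS factors. Relative to the TSS, the Ube2b peak ran from -58 to 487 bp in control and from -65 to 782 bp in COH, and that of Trim41 from -33 to 749 and from -38 to 675. For Usp38 the control peak covered -281 to 90 bp and the COH peak -442 to 23 bp. The Ube2g1 peaks overlapped over a short stretch: in control the peak began at -45 and ended at 908 bp, whereas in COH it began at -313 and ended at -19 bp. The printed window thus covered these peaks only in part. From the RefSeq start, CACGTG of Ube2b began at -107, -76 and -10 bp, and GGGCGG of Trim41 at -132, -89 and 9 bp. Some of these positions come before the given beginnings of the peaks. Whether those motifs lay inside or outside the peaks cannot be told, since starts were matched only within 100 bp.

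GC-rich promoters were a shared feature that the names did not choose. RefSeq promoters were at hand for 45 ubiquitin genes with a peak within 1000 bp, and their median GC content was 69.0%, beside 65.7% for the 1712 promoters of all genes with such a peak. The 196 promoters of ubiquitin genes without a peak had a median of 56.7%, and all 17492 protein-coding promoters 56.3%. The median number of CG dinucleotides was 29 in the ubiquitin promoters with a peak and 15.5 in those without. GGGCGG was found in 41 of the 45 (91.1%) with a peak and in 98 of the 196 (50%) without, against 46.3% of all promoters. In all genes with a start-near peak the share was 78.9%. TGACGT was found in 8 of 45 (17.8%), beside 14.7% of all genes with a start-near peak and 8.76% of all promoters. TGACGTCA was found in 3 (6.67%, beside 3.86% and 2.34%), CACGTG in 6 (13.3%, beside 11.04% and 7.89%) and CCGGAAG in 9 (20%, beside 15.5% and 11.9%). ATTGG, the core of the CCAAT box, was found in 11 (24.4%), beside 42.6% and 39.0%, and TATAAA in 1 (2.22%), beside 3.74% and 13.3%. The longer motif of YY1 was found in 2 (4.44%, beside 2.28% and 1.26%) and that of NRF1 in 0 of this window (beside 2.63% and 1.31%). Promoters rich in G and C hold motifs made of G and C more often by their composition, and the part of composition in these shares was not tested. Genes without a matched start were taken with their first RefSeq start, which need not be the one at the peak. Of 21 ubiquitin genes whose start was matched to RefSeq, 0 had another protein-coding gene starting within 1000 bp upstream on the opposite strand. Of 1179 genes of the lists 131 (11.1%) had one.

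By enzyme class, the genes of the control list were found in the COH list to different degrees, in classes of few genes each and with no test. Of 11 E2 genes with a control peak 7 (63.6%, 30.8 to 89.1) were also in the COH list, and of 14 USP genes 10 (71.4%, 41.9 to 91.6). Of 5 HECT ligase genes 0 were (0 to 52.2), of 8 KLHL genes 0 (0 to 36.9), of 3 OTUD genes 0 (0 to 70.8), of 12 F-box genes 2 (16.7%, 2.09 to 48.4) and of 5 TRIM genes 1 (20%, 0.505 to 71.6). Such counts move with peak strength, so each class was set beside all control genes of the same 5 bins by fold. Of these 37.6% were also in the COH list for the bins of the E2 genes, 42.6% for those of the USP genes and 30.3% for the HECT ligases. The share was 37.0% for the bins of the KLHL genes and of the F-box genes, 37.2% for the TRIM genes and 29.7% for the OTUD genes. The interval of the class held the share of its bins for E2, USP, HECT, OTUD, F-box and TRIM genes, and for the KLHL genes its upper end lay just under it. E2 and USP genes made up 17 of the 21 ubiquitin genes in both lists, a grouping picked after these counts had been seen.

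**Figure D1:**
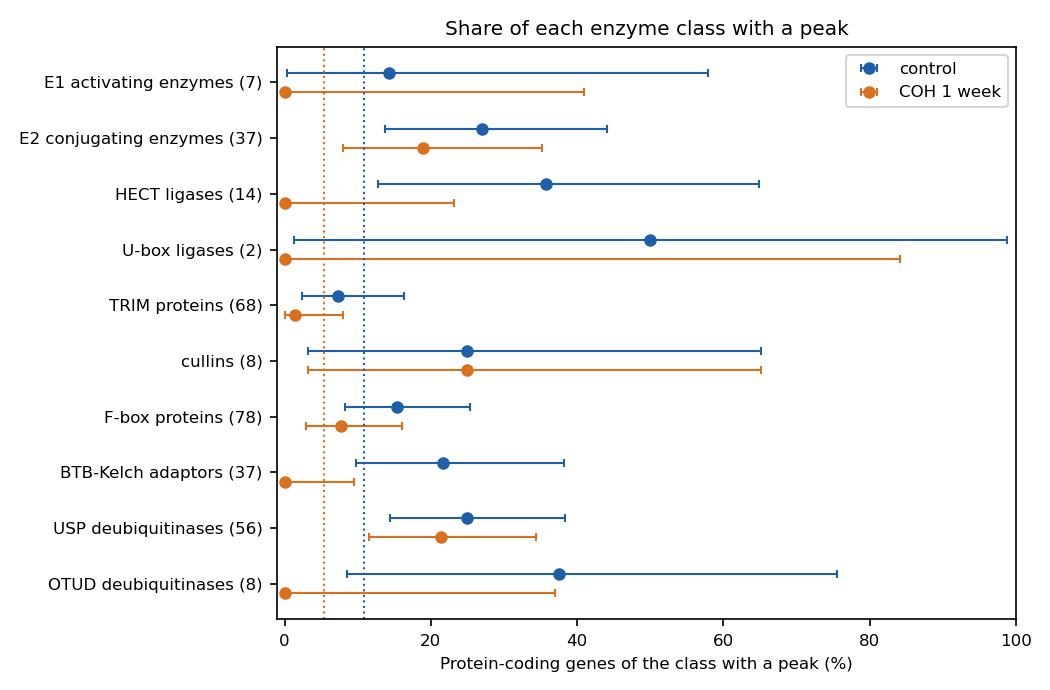
Share of the protein-coding genes of each class (number in brackets) with a peak, in percent, for the control library (blue) and the COH library (orange). Points are shares, bars exact 95% binomial intervals and dotted lines the shares of all protein-coding genes, 10.8% and 5.38%; USP deubiquitinases stood at 25% and 21.4%, KLHL adaptors at 21.6% and 0%.

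**Figure D2:**
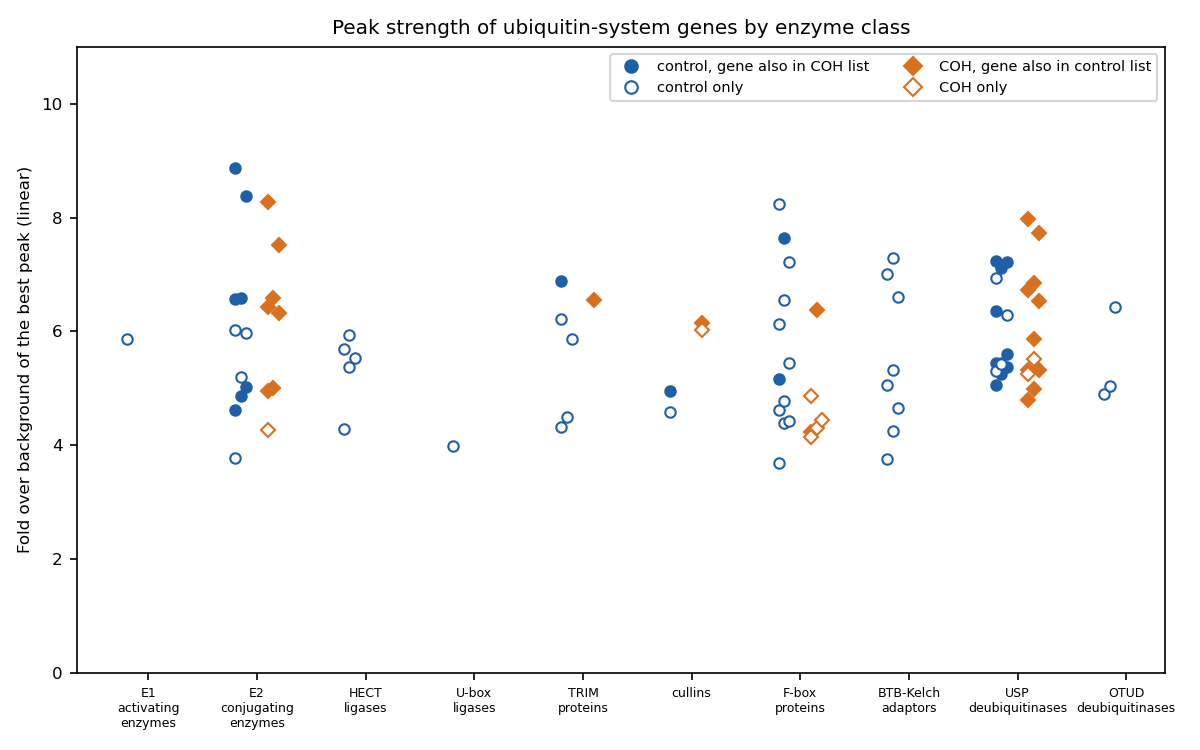
Fold over background (linear axis) of the best peak of each ubiquitin gene, by class. Filled symbols are genes in both lists and open symbols genes in 1 list, circles control and diamonds COH; most filled circles stand in the E2 and USP classes, 17 of 21.

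Of 7 E1 genes 1 had a control peak (14.3%, 0.361 to 57.9, beside 10.8% of all protein-coding genes) and 0 a COH peak (0 to 41.0, beside 5.38%). This gene was Uba6, which charges ubiquitin besides the main enzyme Uba1. Its peak covered the TSS, from 86320329 to 86320697 on chromosome 5 (positions throughout are those of the lists), and had a fold of 5.87 and a pileup of 17. Its gene is not in the COH list, where the nearest peak was 421335 bp away. The other 6 E1 genes, Uba1 among them, had no peak in either list.

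Among the ubiquitin peaks at promoters, that of the E2 gene Ube2b had the highest fold in control, but not in COH, and Ube2d3 had a higher pileup in both. Ube2b encodes the mouse form of yeast Rad6, known for ubiquitination of histone H2B and for tolerance of DNA damage. The pileup of its promoter peak was 42 in control and 22 in COH, with a fold of 8.38 and 6.43, and a rank of 258 of 3078 and 511 of 1711. In control it spanned 51891102 to 51891647 on chromosome 11. Among ubiquitin genes in both lists this was the lowest ratio of pileups, 0.524.

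Ube2d3 and Ube2d2a encode closely related enzymes that serve a wide range of RING ligases. The Ube2d3 promoter peak was the longest of the set, at 135143646 to 135145128 on chromosome 3 in control, and its pileup was 44 there and 29 in COH. Its fold was 6.59 in each library. The Ube2d2a peak, at 35904389 to 35904782 on chromosome 18, had a fold of 6.57 in control and 7.52 in COH, with pileups of 24 and 19. Both genes thus had the lower pileup in COH, with a fold that was equal or higher there.

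Ube2r2, a Cdc34 relative that extends chains with cullin ligases, had promoter peaks with folds of 4.87 and 5.01 and pileups of 18 and 17. Ube2g1, which extends chains in cullin and endoplasmic reticulum pathways, had folds of 4.62 and 4.95 and pileups of 16 and 15. Its control summit lay 484 bp after the TSS and its COH summit at -168 bp, upstream of it.

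The highest folds of the set, 8.87 in control and 8.27 in COH, belong to a peak assigned to Ube2nl. This peak lay in an intron of A230006K03Rik, 366127 bp from the start of Ube2nl, so the name says little about that site. It covered 60832772 to 60833322 on chromosome 7 in control, with a pileup of 20 there and of 21 in COH.

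Among the E2 genes in control only, Ube2h, which works with the CTLH ligase complex, had a 5' UTR peak with a fold of 6.03. Ube2q2 had one with a fold of 5.20, and Ube2j1, an enzyme of protein degradation at the endoplasmic reticulum, a promoter peak with a fold of 3.78. The peak of Ube2w, which can modify the amino terminus of proteins, lay in an intron of its own gene with a fold of 5.97. In COH only, Ube2q1 had a promoter peak with a fold of 4.27 and a pileup of 17.

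All 5 HECT ligase genes of the control list had a peak at the gene start. Ube3a, the gene of Angelman syndrome, had the strongest of them, a promoter peak at 58878124 to 58878965 on chromosome 7 (fold 5.93, pileup 17). Ube3c, a ligase bound to the proteasome, had a fold of 5.54 and Herc4 one of 5.37, with pileups of 17 and 15. Herc2, a giant ligase known from the DNA damage response, had the weakest, with a fold of 4.28 and a pileup of 12. Nedd4 and Nedd4l, which regulate membrane channels and receptors, had no peak in either list. The nearest COH peak to any of the 5 was that to Ube3a, 135780 bp away. Of the U-box ligases, Ube4b had a 5' UTR peak in control with a fold of 3.99.

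Of 68 TRIM genes the control list held 5 (7.35%, 2.43 to 16.3, beside 10.8% of all genes), and 1 (1.47%, 0.0372 to 7.92, beside 5.38%) stood in the COH list. Both intervals held the share of all protein-coding genes. Trim41 was the member in both. Its promoter peak, at 48707431 to 48708213 on chromosome 11, had folds of 6.89 in the control list and 6.55 in the COH list, with pileups of 31 and 24. In control only, Trim27 had a 5' UTR peak near its start with a fold of 5.87 and Trim39 one with a fold of 4.31. The peaks of Trim36, a microtubule-associated member (fold 6.22), and Trim8 (4.50) lay 13298 and 21873 bp from the start of the gene.

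Of 8 cullin genes 2 (25%, 3.19 to 65.1) had a peak in each list, beside 10.8% and 5.38% of all protein-coding genes. The interval held the share of all genes for each list. Cul3, the scaffold of the KLHL ligases and known for the turnover of RhoA, a GTPase related to Rac1, was in both. Its promoter peak lay upstream of the TSS, with summits at -730 and -541 bp, folds of 4.96 in control and 6.15 in COH and pileups of 19 and 18. It covered 80318521 to 80319041 on chromosome 1 in control. Cul2, the scaffold of the VHL ligase, had a 5' UTR peak in COH only with a fold of 6.03, the highest fold among the 8 ubiquitin genes in the COH list alone. Cul5 had a peak in control only, annotated to a 5' UTR 2546 bp from the gene start, with a fold of 4.58.

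Of 78 F-box genes 12 (15.4%, 8.21 to 25.3) had a control peak, beside 10.8% of all protein-coding genes. A COH peak was found for 6 (7.69%, 2.88 to 16.0), beside 5.38%. Both intervals held the share of all genes, and 2 F-box genes were in both lists. The 2 are 16.7% (2.09 to 48.4) of the control genes, an interval that holds the 35.6% of all control genes. Fbxw7, the adaptor that marks cyclin E, Myc, Jun and Notch for degradation, had overlapping promoter peaks whose pileups were 18 in control and 22 in COH, with folds of 5.17 and 6.38. The control peak covered 84721520 to 84722299 on chromosome 3. The other was a distal site at -22028 bp from the start of Fbxw14, with a fold of 7.65 in control and 4.23 in COH, the widest gap of the set.

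In control only, Fbxo30 had the strongest peak of the class, at its promoter (fold 8.24, pileup 28), which ranked 276 in its list. It lay at 11156616 to 11156965 on chromosome 10, and the nearest COH peak was 1253721 bp away. Fbxo47 had a fold of 7.21, Fbxl4, which restrains mitophagy, 6.55, and Fbxo5, an inhibitor of the anaphase-promoting complex, 6.13. Fbxo31, Fbxo33, Fbxo34, Fbxo44 and Fbxl22 were also in control only, with folds of 3.68 to 5.44.

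In COH only, Fbxo11 had a promoter peak with a fold of 4.87, Fbxl17 one with 4.15 and the brain-enriched Fbxo41 a 5' UTR peak with 4.31. Fbxl19, an F-box protein known to mark Rac1 itself for degradation, had a 5' UTR peak (fold 4.44, pileup 25), 2052 bp from the gene start. The folds of these 4 genes lay in the lower part of the COH list, at ranks of 1169 to 1551 of 1711.

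The 8 KLHL genes of the control list had folds from 3.75 to 7.29, and 7 of them had the peak within 1000 bp of the TSS. Klhl24, an adaptor that controls keratin and filament turnover, had a 5' UTR peak with a fold of 7.29 and a pileup of 20, at 19916320 to 19917087 on chromosome 16. Klhl8 followed with a fold of 7.02 and Klhl26 with 6.61. Klhl2, which binds actin and the WNK kinases, had a fold of 5.33. The remaining 4 had folds of 3.75 to 5.05: Klhl31, through an exonic peak 18967 bp from its start, Klhl18, Klhl36 and Klhl42, an adaptor for the microtubule-severing katanin. In COH 0 of 37 KLHL genes (0 to 9.49%) had a peak, an interval that holds the 5.38% of all protein-coding genes. Klhl24 and Klhl8 were in the highest of the 5 fold bins, in which 71.5% of all control genes were also in the COH list.

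USP deubiquitinases formed the largest group in both retinas, 10 genes. Usp9x, an X-linked enzyme known for stabilising proteins in neurons, had promoter peaks of almost the same height, 26 in control and 27 in COH, with folds of 7.23 and 7.74. In control the site spanned 12937144 to 12937613 on chromosome X. Usp32 had pileups of 28 and 29 and folds of 7.12 and 7.97, and its COH peak had the highest -log10 q of the 29, 15.8. Usp53 had pileups of 24 and 17 and folds of 7.22 and 6.73. Of these 3 genes, Usp53 alone had the lower fold and the lower pileup in COH.

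Usp22, the deubiquitinase of the SAGA complex that acts on histone H2B, had folds of 6.36 and 6.54, with pileups of 25 and 22. Ube2b, which places ubiquitin on the same histone, was also in both lists. Usp34, known from Wnt signalling, had folds of 5.44 and 6.85, the largest excess of COH over control in the set, with pileups of 20 and 23. Usp28, which stabilises Myc and works against Fbxw7, had folds of 5.61 and 5.87 and pileups of 26 and 23. Usp12 had folds of 5.45 and 4.80 and pileups of 25 and 17. Usp38 had folds of 5.38 and 5.32 and Usp25 folds of 5.06 and 4.99, both with lower pileups in COH.

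Usp14, a deubiquitinase of the proteasome, had overlapping peaks annotated to a 5' UTR 14986 and 14976 bp from the gene start of the lists, with folds of 5.24 and 5.32. In control only, the nucleolar Usp36 had the strongest peak, at its promoter (fold 6.94, pileup 27), and Usp47, Usp42 and Usp24 had promoter peaks with folds of 6.28, 5.42 and 5.30. In COH only, Usp3, an enzyme of histone H2A, and Usp15 had promoter peaks with folds of 5.52 and 5.25 and pileups of 17 and 15. The OTUD family had peaks in control for Otud1 (fold 4.90), Otud4 (5.03) and Otud7a, which had 2: a 5' UTR peak at its start (4.05) and an intronic one in 4930554H23Rik, at -70282 bp (6.43).

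**Figure D3:**
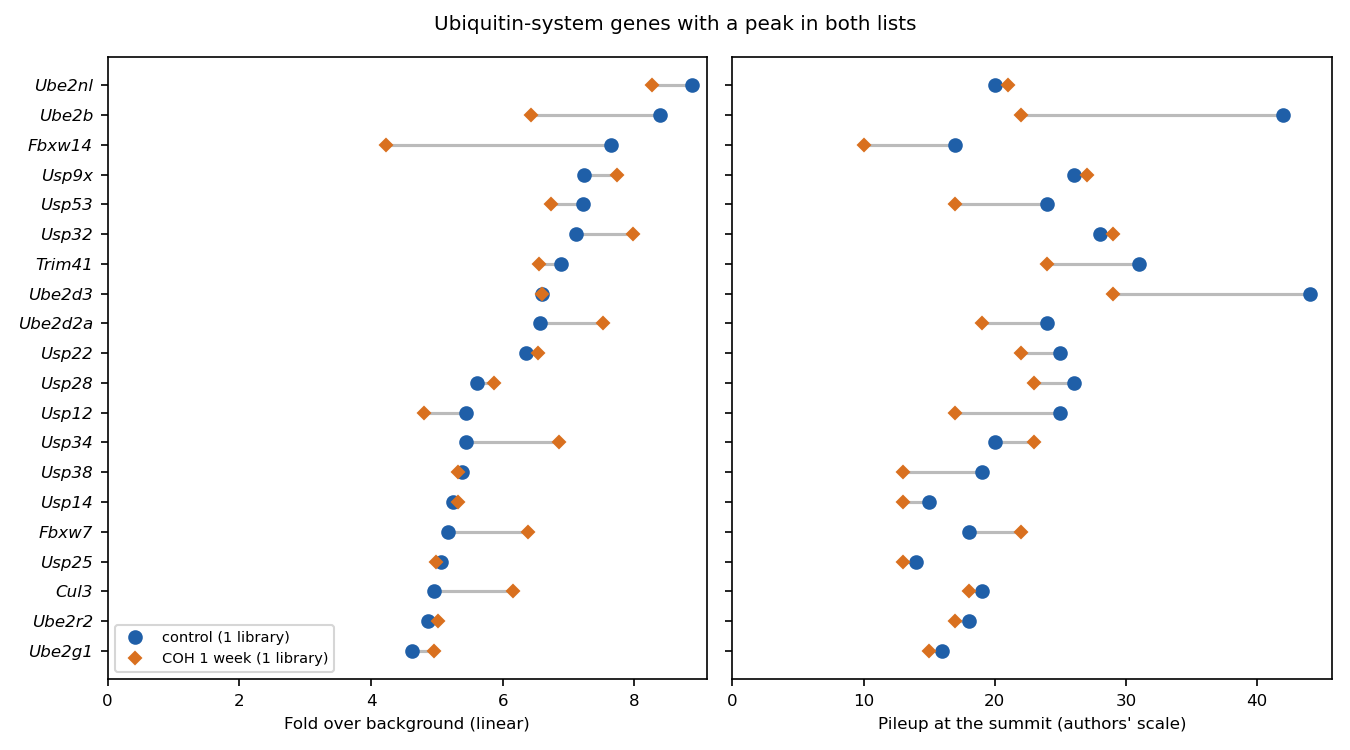
Fold (left, linear axis) and pileup (right, the authors' scale) of 20 of the 21 ubiquitin genes with a peak in both lists, control as blue circles and COH as orange diamonds, 1 library each. Among the genes shown the pileup was lower in COH for 15 and higher for 5, whereas the fold was higher in COH for 12.

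All 21 genes in both lists had overlapping peaks, and 0 of the ubiquitin peaks overlapped one assigned to another gene. The pileup was lower in COH at 16 of them and higher at 5, with a median ratio of COH to control of 0.885, beside 0.850 over all 1029 genes in both lists. The fold was higher in COH at 13 of 21 (61.9%), where 45.0% of all shared genes had the higher fold there, and the median difference of fold, COH minus control, was 0.15 and -0.15. Fold and pileup thus leaned opposite ways for these genes, and with background and scaling not stated neither gives a change of binding. An overlap of at least 1 bp with a control peak was found for 21 of the 29 COH peaks (72.4%, 52.8 to 87.3), beside 61.8% of all COH peaks. From the control side it was 21 of 63 peaks (33.3%, 22.0 to 46.3), beside 34.3%.

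Where a ubiquitin peak had no partner, no peak of the other list stood close by. The lists as a whole were similar at short range. Of all control peaks 34.3% overlapped a COH peak and 35.3% had one within 1000 bp. From the COH side it was 61.8% and 63.5%. The longer distances below were not computed for all peaks. The nearest COH peak to any unpartnered control peak was 17946 bp away, at Fbxo5, and the median was 381738 bp. The nearest control peak to an unpartnered COH peak was 80375 bp away, at Usp3. Genes in control only had folds of 3.68 to 8.24 with a median of 5.37, close to the control median of 5.61 for the genes in both lists. Genes in COH only had a median fold of 4.66 (4.15 to 6.03), while those in both lists had a COH median of 6.38.

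In the control list as a whole the share of genes also found in COH was higher in each higher bin of fold, while the shares of the ubiquitin genes had no such order. In the lowest of the 5 bins 0 of 9 ubiquitin genes were also in COH (17.3% of all genes), in the next 3 of 9 (22.0%), in the middle bin 8 of 17 (29.5%), in the fourth 3 of 15 (37.5%) and in the highest 7 of 12 (71.5%). The interval of the ubiquitin genes held the share of all genes in each bin. In the middle bin 6 of the 8 were USP genes: Usp12, Usp14, Usp25, Usp28, Usp34 and Usp38. In the fourth bin 12 genes had no COH peak, among them Ube3a, Uba6, Trim27 and Usp47.

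**Figure D4:**
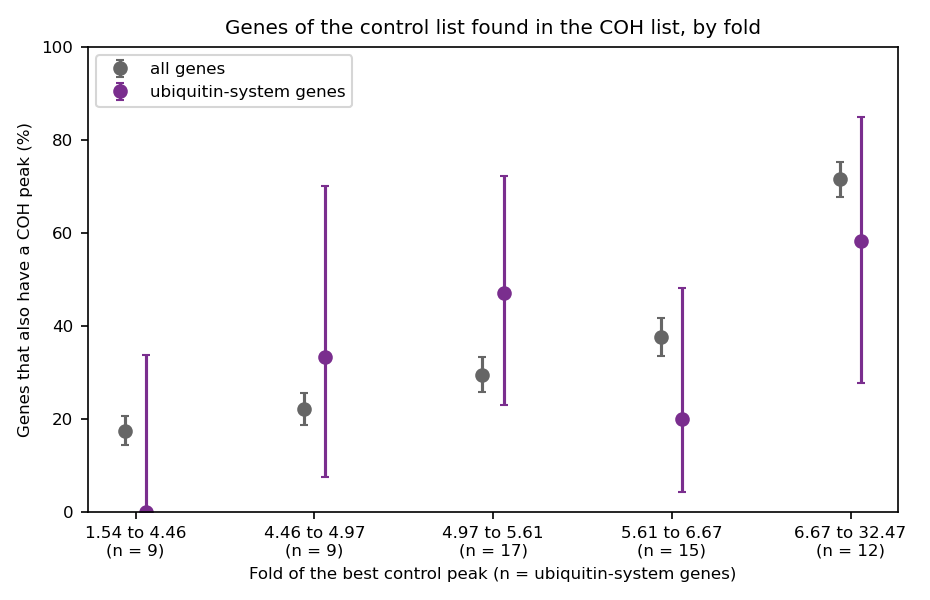
Share of genes of the control list that also have a COH peak, in percent, in 5 bins by the fold of the best control peak, for all genes (grey) and ubiquitin genes (purple, number under each bin). Bars are exact 95% binomial intervals; the grey share runs from 17.3% to 71.5%, and the purple intervals, from 9 to 17 genes a bin, include it throughout.

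Within 1000 bp of the start the summits clustered around the TSS. In control 36 of 52 (69.2%) lay within 250 bp of it, beside 63.3% of all start-near peaks. The median position of the 52 was 43 bp downstream, and that of all start-near control peaks 68 bp downstream. In COH 14 of 25 (56.0%) lay within 250 bp, beside 63.4%. The median position of the 25 was -121 bp, upstream, and that of all start-near COH peaks 33 bp downstream. For the 18 genes with start-near peaks in both lists the COH summit lay farther upstream at 10 and farther downstream at 8, with a median distance between the summits of 129 bp, beside 108 bp over all 589 such genes. The largest, 652 bp, was at Ube2g1, and at 8 genes the summits were within 100 bp of each other. With its sign, the median shift from control to COH was -14 bp for the 18 genes, beside -1 bp over the 589.

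**Figure D5:**
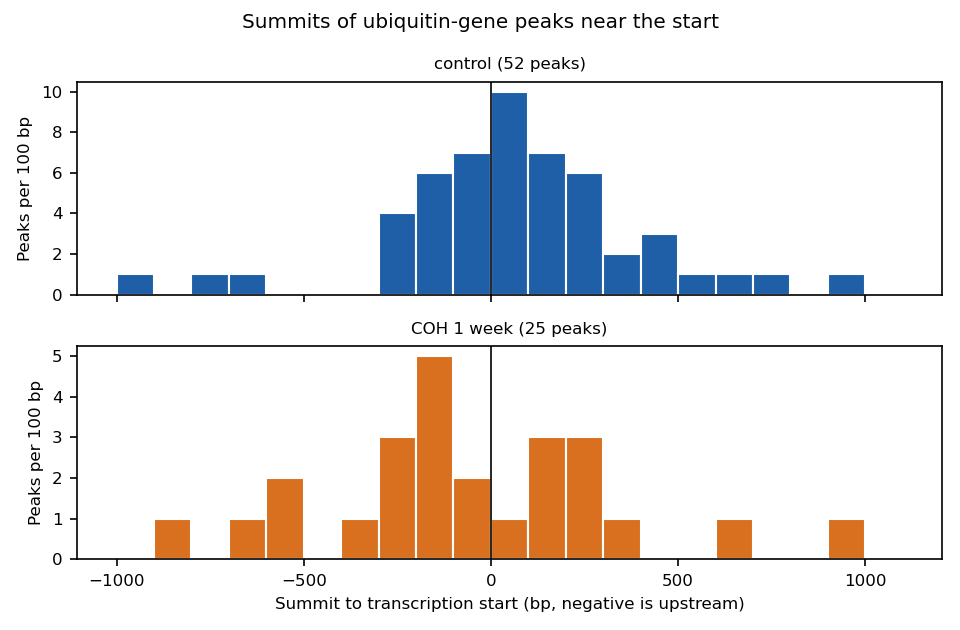
Position of the summits of ubiquitin-gene peaks within 1000 bp of the TSS, in bp along the gene (negative is upstream), as peaks per 100 bp, for 52 control peaks (top) and 25 COH peaks (bottom). In control the tallest bar lies just after the TSS, and in COH it lies upstream of the TSS.

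Other genes of the ubiquitin pathway were listed by function. The 6 lists hold 242 genes, of which 41 (16.9%, 12.4 to 22.3) had a control peak, 23 (9.50%, 6.12 to 13.9) a COH peak and 14 both, beside 10.8% and 5.38% of all protein-coding genes with a control or a COH peak. Single lists were small. Among 36 core genes of the cullin ligases, 8 were on the control list (22.2%, 10.1 to 39.2). The COH list held 5 (13.9%, 4.67 to 29.5), and all 5 were also in control. Both intervals held the shares of all protein-coding genes. Of all COH genes 64.6% were also in the control list, the share to set beside this overlap and those of the other lists. Rbx1, the RING subunit of the cullin complexes, had promoter peaks with folds of 6.01 in control and 7.42 in COH. Spop, a Cul3 adaptor, had folds of 6.49 and 6.08, Btrc, an F-box protein of Wnt and NF-kappaB signalling, 5.59 and 6.83, Cand1, which exchanges F-box proteins, 5.28 and 5.38, and Ddb2 6.60 and 6.79.

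Other ligases had 19 of 98 (19.4%, 12.1 to 28.6, beside 10.8%) in control and 9 (9.18%, 4.29 to 16.7, beside 5.38%) in COH, 6 of them in both: Rnf13, with folds of 8.77 and 5.38, Rchy1, with 7.37 and 4.93, Rnf126, with 4.44 and 5.70, Rnf14, with 5.49 and 5.83, and Pja2 and Znrf3. Other deubiquitinases had 6 of 28 (21.4%, 8.30 to 41.0) and 2 (7.14%, 0.877 to 23.5), intervals that hold the shares of all genes, with Cyld, a brake on NF-kappaB, in both (folds of its promoter peak 5.85 and 5.20). In control Uchl5, a proteasome-bound enzyme, was named through a distal peak (6.19) and Otulin, which cuts linear chains, through a promoter peak (6.01). Tnfaip3, which encodes the NF-kappaB inhibitor A20, had a 5' UTR peak in COH (4.44). Of the 48 proteasome genes the control list named 4 (8.33%) and the COH list 5 (10.4%, 3.47 to 22.7), within counting error of the 10.8% and 5.38% of all genes, with the activator subunit Psme3 in both, at folds of 4.26 and 4.42. The highest folds among them were 5.37 in control, at Psmd12, and 5.21 in COH, at Psmd11, both subunits of the proteasome lid. Proteins that deliver ubiquitinated cargo had 4 of 29 (13.8%, 3.89 to 31.7) and 2 (6.90%, 0.846 to 22.8), whose intervals also hold those shares. Rad23b was in both (4.70 and 4.54), and Stam (7.29) and Faf1 (5.17) were in control. In COH the glaucoma gene Optn was named through an intronic peak (fold 4.11, pileup 8). This peak was among the weakest, with the lowest pileup of the COH list and a rank of 1557 of 1711 by fold. Ubb and Rps27a, which encode ubiquitin itself, had 0 peaks in either list.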

How the data were processed

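CUT&Tag libraries were amplified with 15 PCR cycles, per the labels' protocols. The submitters' processing notes name cutadapt 1.9.1, Bowtie2 and mm9, without roles. The sources used here do not give the peak caller, its settings or how duplicates were handled. For the peaks of each library the authors deposited a signal (pileup), a ratio (fold), a -log10 p and a -log10 q. The 2 score columns with a damaged heading were read from their place and values. The positions are those of the lists. Their build is not settled, since raw starts met those of GRCm38.p6 within 100 bp for 57 of 2229 genes.

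Peaks were chosen by gene name and matched between lists where they shared 1 bp or more, with Python 3.11.15, pandas 2.3.3 and scipy 1.17.1. Intervals of shares are Clopper-Pearson 95%. Copies made by PCR cannot be told from separate molecules here, which these intervals leave out. Promoters are from RefSeq, which held 51 of the 70 genes, and a start was matched for 21 where its offset met the median of 20 neighbouring genes within 100 bp. For composition and motifs, other genes were taken with the first start in the table. The overlap step was tested on control peaks with planted overlaps, and the name rule on a set of names. Other steps had no such test. Named were the genes in both lists and up to 4 per class and list by fold, and others to complete a count. Values of some single genes are not reported here, though the counts include them. Members and lists were chosen with earlier results of these data known. Alternatives were stricter thresholds, equal list lengths, distance limits, other overlaps and fewer members.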

Additional observations from a re-analysis of the deposited data

How the results depend on the processing

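Of 40 recomputed values 35 stayed within 1.5 times the count, or inside the interval of the share, and 5 did not. With peaks at or above the median fold of their list, 38 ubiquitin genes had a control peak, 16 a COH peak and 11 both. With as many of the strongest peaks in each list as the shorter one holds, 41 had a control peak. With a reciprocal overlap of 50% the share of COH peaks that overlapped a control peak was 51.7%, beside 52.0% of all COH peaks. The first 2 settings leave fewer peaks by construction. Leaving out the pseudogene Ube2nl, chosen after seeing the data, left 61, 28 and 20 genes. Classes are not among the 40 values. With a -log10 q of at least 5, 7 of 13 USP genes (53.8%) in control were also in COH, beside 38.5% of all genes. With peaks at or above the median fold it was 6 of 13 (46.2%, 19.2 to 74.9), beside 36.9%. For E2 genes the share was 66.7% in each of these settings. For KLHL genes it was 0 of 5 (0 to 52.2) with the q threshold and 0 of 4 (0 to 60.2) with the fold threshold. Both KLHL intervals, from fewer genes, held the shares of all genes. No paired analysis was possible because each condition has 1 library. Depth is unknown, and the lists hold only peaks past a threshold.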
